A study of Homo sapiens with 3 samples.

Results

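Domain V of human 28S ribosomal RNA (rRNA) holds the peptidyl transferase centre, where the ribosome joins amino acids, and part of the E site, from which used tRNA leaves. The stretch described here is every A and C numbered 4101 to 4600 in the deposited 28S table. The rule is one of position and base alone. It gave 231 positions, 105 A and 126 C, of 2492 A and C in the whole rRNA. The letters of the table hold the bases known for the landmarks of this domain, C4341, A4397, C4398, U4452, U4531 and A4548, where the table writes T for the U of the rRNA.

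Human HEK293 cells, a line from embryonic kidney, gave 3 libraries, 1 for each treatment. The cell line field reads HEK293, whereas the growth text names HEK293T/17, a subline with the SV40 large T antigen. The DMSO library came from cells given the solvent alone, the cycloheximide library from cells at 10 µM cycloheximide and the RiboBright library from cells at 10 µM of that probe, each for 30 min. RNA of all 3 was probed with dimethyl sulfate, a reagent that methylates the pairing face of A and C where neither a base pair nor a bound partner shields it. TGIRT-III misreads methylated bases, and the deposited signal is this misreading per nucleotide. The scale of this signal is not stated, and 15 of the 231 positions reached at least 1 in each library. With 1 library for each treatment, no difference below has an error between replicates, no test or p-value is given, and each comparison is of libraries. Read depth is not given by the values.

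The ring at the centre of domain V lines the peptidyl transferase centre. Next to it, the P loop and the A loop pair with the CCA ends of the P-site and A-site tRNA. The CCA end of the E-site tRNA sits further away on the large subunit, in a pocket that cycloheximide also occupies. Cycloheximide stops translocation from this pocket, and C4341 is the base known for its footprint. The labels give no structure and no binding site for RiboBright.

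The strands that carry these sites are shown as the deposited table spells them, 5′ to 3′, since a base can be read only where the letter is A or C. Capitals mark the E-site bases U4340, C4341, G4370 and G4371 in the E-site strand, and the peptidyl transferase bases in the other strands. Of these, U4340, G4370, G4371, U4452 and U4531 carry no value. In the strand that ends at 4551, A4523 is also in capitals.

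E site, 4331 to 4380: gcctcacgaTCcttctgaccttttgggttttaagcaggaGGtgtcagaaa

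Strand of A4397, 4385 to 4400: AccacagggatAACtg

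Strand of A4449, 4441 to 4456: atccttcgAtgTcggc

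Strand of A4548, 4514 to 4551: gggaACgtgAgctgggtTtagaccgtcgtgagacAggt

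All 231 positions had a value in all 3 libraries, and the nearest A or C that lacked one was 460 nt away. In the rest of 28S a value was missing at 12% of A and C in DMSO, 10.1% in cycloheximide and 28.9% in RiboBright. Within 4101 to 4600 exact zeros were found in RiboBright alone, at C4138, C4145, C4160 and C4537, where the other libraries had at most 0.045. The stretch is richer in A (21.0%) and poorer in C (25.2%) than the whole rRNA (15.7% and 33.4%).

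Accessibility was low over most of the stretch and high at a few bases. The median signal of A was 0.131 in DMSO, 0.148 with cycloheximide and 0.135 with RiboBright. For the adenosines of the rest of 28S it was 0.133, 0.139 and 0.136. The median of C in the stretch was 0.0685, 0.0715 and 0.0805, against 0.077, 0.083 and 0.079 for the cytidines of the rest of 28S. For comparison between libraries, values were multiplied by a factor that brings each library's median to that of DMSO (0.945 for cycloheximide and 0.912 for RiboBright). A level floor was set at 0.240, the 75th percentile of DMSO over all A and C. Adenosines reached it at 34 of 105 positions in DMSO (32.4%, against 27.7% in the rest of 28S) and cytidines at 19 of 126 (15.1%, against 24%). In all, 47 positions were past the floor in every library, 174 in none and 10 in some but not all. By its definition the floor is reached in DMSO by 25% of the A and C of 28S with a value, against 22.9% in the stretch.

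The 10 most reactive positions in DMSO were A4523, C4252, A4424, A4244, C4341, A4257, C4215, A4415, A4203 and C4398. A4523, a ribose-methylated adenosine, led the stretch in every library with 8.82 in DMSO, 8.216 with cycloheximide and 9.803 with RiboBright, and ranked 3 in the whole of 28S in DMSO. C4252 had 5.738, 5.99 and 5.774 in the same order, A4424 had 3.77, 3.813 and 4.069, and A4244 had 2.732, 2.801 and 2.80. These 4 bases kept their order in every library. Over the 9 of these 10 positions other than C4341, the log2 ratio to DMSO spanned -0.43 to -0.02 with cycloheximide and -0.31 to 0.13 with RiboBright. Ratios throughout are log2 of scaled signal plus 0.0104, so they understate changes at low levels.

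**Figure D1:**
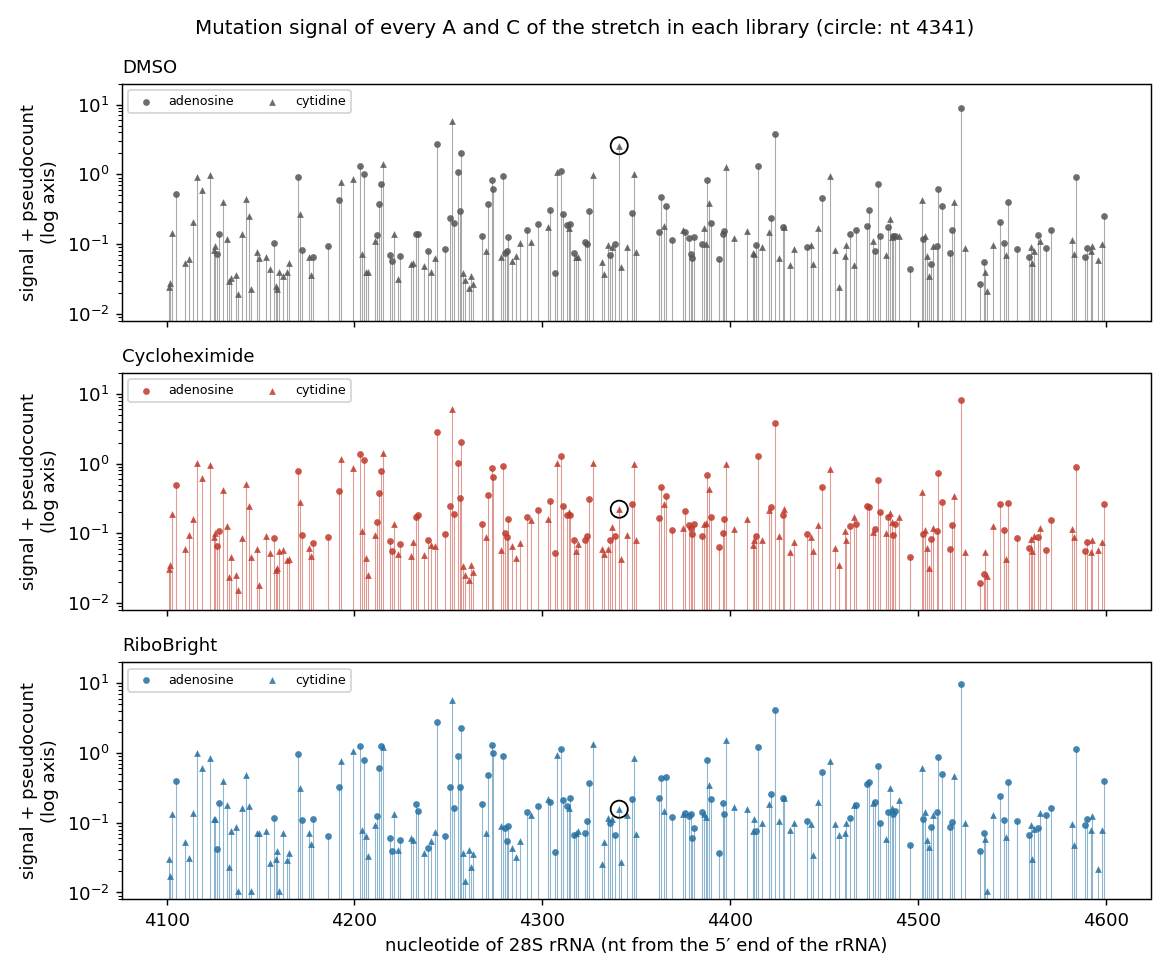
Mutation signal plus a pseudocount of 0.0104 (log axis) at each A (circles) and C (triangles) of 28S nucleotides 4101 to 4600, with 1 panel for each library. The tall lines recur in all 3 panels, except for the ringed C4341, at 2.564 in DMSO, 0.212 with cycloheximide and 0.146 with RiboBright.

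C4341 was the base that set the treated libraries apart. Its signal of 2.564 in DMSO ranked 5 among the 231 positions, and the signals of 0.212 with cycloheximide and 0.146 with RiboBright ranked 60 and 86. Both compounds left it low. After scaling, the log2 ratio to DMSO was -3.61 for cycloheximide and -4.16 for RiboBright. Among positions past the floor in the whole of 28S, 2 of 588 had a ratio of at least that size under cycloheximide, C4341 included, and 1 of 498, C4341 alone, under RiboBright. This base made up 23.1% of the summed absolute difference between cycloheximide and DMSO over the stretch, and 17.9% of that between RiboBright and DMSO. Both comparisons use the same DMSO library.

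The bases next to C4341 carried little signal in any library. On its 5′ side A4339 had 0.091 in DMSO, 0.08 with cycloheximide and 0.056 with RiboBright, and C4337 had 0.081, 0.113 and 0.104. On its 3′ side C4342 had 0.036, 0.032 and 0.017, and C4345 had 0.08, 0.083 and 0.119. All 4, chosen after their values were seen, lay below the floor in every library. Their log2 ratios to DMSO ran from -0.24 to 0.36 under cycloheximide, and under RiboBright from -0.84 at C4342 to 0.40 at C4345, with A4339 at -0.72.

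The other accessible bases of the E-site windows, which reach 10 nt to each side of C4341 and of G4370, lay within 1.5-fold of DMSO in both treated libraries. C4349 had 1.008 in DMSO, 0.969 with cycloheximide and 0.851 with RiboBright. A4348 beside it had 0.266, 0.253 and 0.208. In the second window A4363 had 0.462, 0.459 and 0.428, and A4366 had 0.342, 0.332 and 0.446. Apart from C4341, the log2 ratios past the floor spanned -0.15 to 0.47 with cycloheximide (5 positions) and -0.47 to 0.24 with RiboBright (4 positions). With the bases below the floor included, the 21 ratios spanned more, -0.79 to 0.64 with cycloheximide and -1.20 to 0.75 with RiboBright.

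C4365, between A4363 and A4366, had the largest log2 ratio in size between the compounds among E-site bases past the floor, although the difference in scaled signal was larger at C4349 (-0.140 against -0.121). Its signal was 0.173 in DMSO, 0.258 with cycloheximide and 0.135 with RiboBright. Between RiboBright and cycloheximide the log2 ratio was -0.93, and each compound lay on a different side of DMSO, at 0.47 for cycloheximide and -0.46 for RiboBright. These are low signals close to the floor.

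**Figure D2:**
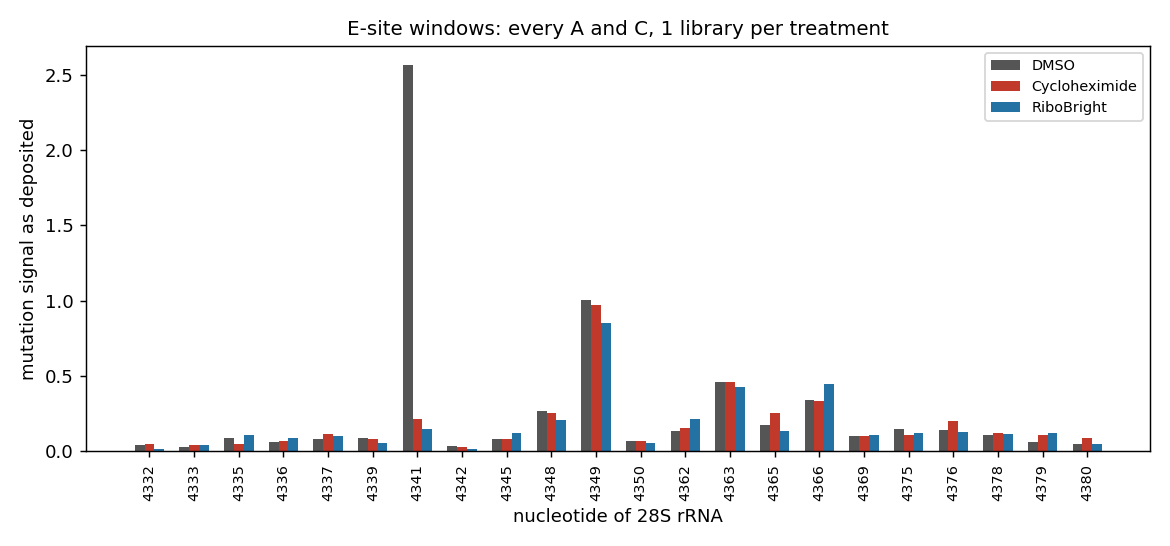
Deposited mutation signal (linear axis from 0) at the 22 bases, A or C, of the E-site windows, with 1 bar for each library. C4341 stands at 2.564 in DMSO and at 0.212 and 0.146 in the treated libraries, whereas C4349 stays between 0.851 and 1.008.

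Across the stretch a position was called where it was past the floor and differed by at least 2-fold. C4341 was the 1 position called, lower, of 54 past the floor under cycloheximide, where the rule called 4.59% over all of 28S. It was also the 1 position called, lower, of 56 under RiboBright, where the rule called 5.22% over 28S. Between RiboBright and cycloheximide 0 of 54 were called, against 5.76% over 28S. C4341 is not among these 54, since its scaled signals of 0.200 with cycloheximide and 0.133 with RiboBright lie below the floor. Over the positions of 28S more than 25 nt from a missing value, as all 231 are, the 2-fold rule called 0.513% under cycloheximide (2 of 390, C4341 among them), 3.3% under RiboBright (14 of 424) and 3.86% between the compounds (16 of 414).

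A smaller size rule of 1.5-fold gave more positions. Under cycloheximide 0 were higher and 2 lower, C4341 and A4548, against 5.44% higher and 5.61% lower over 28S. Under RiboBright 3 were higher and 2 lower, against 9.24% and 8.84%. Between RiboBright and cycloheximide 5 were higher and 3 lower, against 11.7% and 6.38%. The background was lower away from missing values. Over the same positions far from a missing value, the 1.5-fold rule picked 2.31% in either direction under cycloheximide, 13.7% under RiboBright and 15% between the compounds. In the stretch it picked 2 of 54, 5 of 56 and 8 of 54, so apart from C4341 these counts do not stand out from the background.

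The ratios scattered less under cycloheximide than under RiboBright. Past the floor, the log2 ratios had a robust SD (scaled from the median absolute deviation) of 0.11 under cycloheximide, 0.39 under RiboBright and 0.43 between the compounds. Over all of 28S it was 0.23, 0.38 and 0.39. The median log2 ratio of all 231 positions was -0.04 under cycloheximide, -0.03 under RiboBright and 0.01 between them, against -0.01, -0.08 and -0.08 over 28S. Without C4341, log2 signal over the other 230 positions had a Pearson correlation with DMSO of 0.974 for cycloheximide and 0.955 for RiboBright. These positions share a library and an rRNA and are not replicates.

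**Figure D3:**
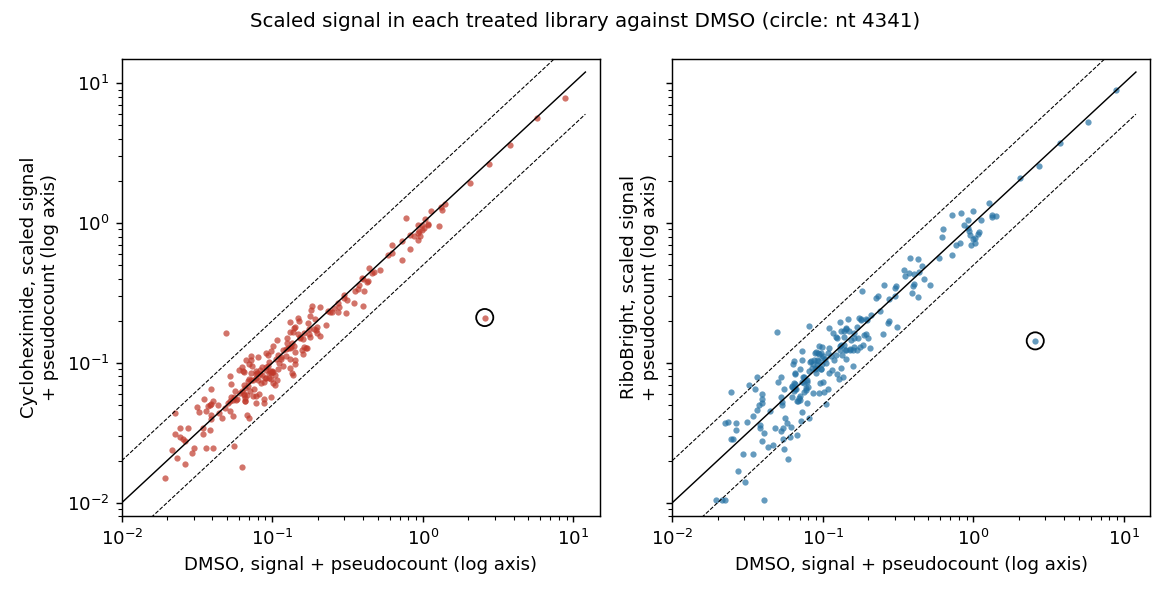
Scaled signal plus pseudocount of the cycloheximide library (left) and the RiboBright library (right) against DMSO for the 231 A and C, on log axes, with equality as a solid line and 2-fold as dashed lines. Points hug the line more tightly for cycloheximide, and the ringed C4341 lies far below it in both panels.

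The peptidyl transferase bases differed widely in how accessible they were. C4398, next to A4397 at the catalytic centre, was the most reactive, at 1.267 in DMSO, 0.989 with cycloheximide and 1.517 with RiboBright. Its log2 ratio of RiboBright to cycloheximide was 0.56, just under 1.5-fold, with DMSO in between, and ran from 0.42 to 0.61 over the scalings and pseudocounts tried. A4397 itself was low, at 0.142, 0.151 and 0.124, and A4396 next to it had 0.131, 0.092 and 0.184.

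A4548, a mobile base at the tip of a hairpin that reaches between the A-site and P-site tRNA ends, had 0.389 in DMSO, 0.259 with cycloheximide and 0.377 with RiboBright. It was lowest in cycloheximide, with a log2 ratio to DMSO of -0.65. This is the largest ratio in size of the 53 positions past the floor other than C4341, and it was under 1.5-fold without scaling, at -0.57, and with scaling by the 90th percentile, at -0.56. Under RiboBright its ratio to DMSO was -0.17.

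A4449, at the mouth of the tunnel through which the nascent chain leaves, had 0.446 in DMSO, 0.45 with cycloheximide and 0.531 with RiboBright. C4519 had 0.394, 0.336 and 0.465, and its neighbour A4518 had 0.147, 0.12 and 0.093. A4385 had 0.089, 0.08 and 0.132. Of these 4 bases, A4449 and C4519 were past the floor in each library, and none of the 4 reached 1.5-fold past the floor in any comparison.

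**Figure D4:**
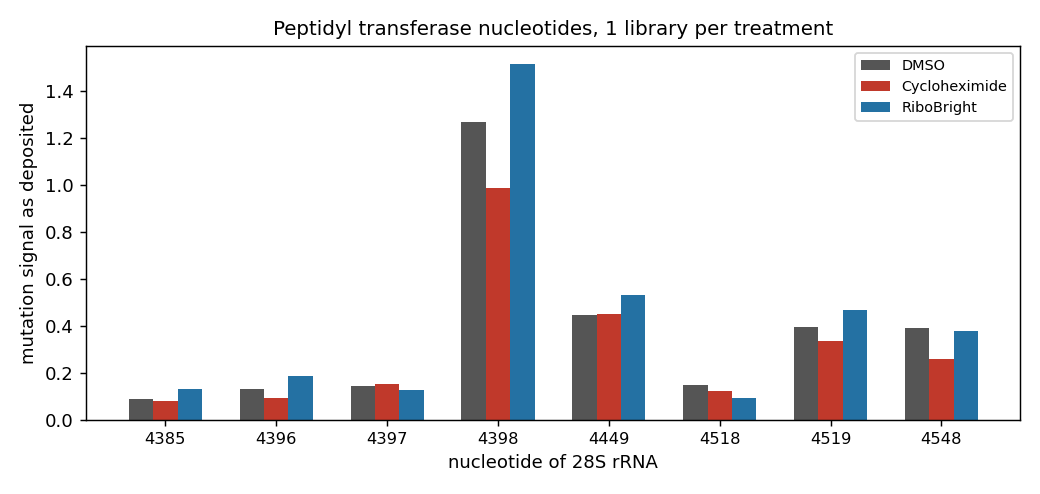
Deposited mutation signal (linear axis from 0) at the 8 peptidyl transferase bases that carry a value, with 1 bar for each library. C4398 is the tallest group, at 1.267, 0.989 and 1.517, and A4548 is lowest in cycloheximide, at 0.259.

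The single-stranded ring was taken as 4385 to 4400, 4441 to 4453, 4528 to 4534 and 4552 to 4557, which leaves out A4518, C4519 and A4548. Over its 18 A and C the median log2 ratio was -0.21 under cycloheximide, with 5 above 0, and 0.07 under RiboBright, with 10 above 0. Between the compounds it was 0.12, with 11 above 0. Over all 231 positions, 97 were above 0 under cycloheximide, 110 under RiboBright and 118 between the compounds. The 5 of the 18 ring bases past the floor ran from -0.43 at C4398 to 0.04 at C4389 under cycloheximide. They ran from -0.47 at C4453 to 0.13 at C4398 under RiboBright. A4388 and C4389, on the strand before A4397, had 0.809 and 0.383 in the DMSO library, 0.678 and 0.417 with cycloheximide, and 0.78 and 0.336 with RiboBright. C4453, which follows U4452, had 0.951, 0.837 and 0.752.

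The loops that hold the tRNA ends come next. The P loop was found as the letters CTGGGGCGG on the rRNA strand, which occur at 1 place in 28S, and the A loop spans 4494 to 4504. Capitals mark the P loop in the first of these strands, together with A4203, A4213, A4214 and C4215. In the second they mark the A and C of the A loop.

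P loop, 4189 to 4220: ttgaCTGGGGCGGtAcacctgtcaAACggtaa

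A loop, 4490 to 4508: cgttggAttgttCACccac

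C4193, the first base of the P loop letters, had 0.759 in DMSO, 1.141 with cycloheximide and 0.756 with RiboBright. It gave the largest rise in scaled signal of the stretch under cycloheximide, 0.320, with a log2 ratio of 0.50, under 1.5-fold. Between RiboBright and cycloheximide the log2 ratio was -0.64. C4199, the other C of the motif, had 0.859, 0.844 and 1.042, with log2 ratios to DMSO of -0.11 and 0.14. Neither C reached 1.5-fold from DMSO, and whether they moved together was not tested.

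In the A loop C4502 was the 1 base past the floor, at 0.418 in DMSO, 0.387 with cycloheximide and 0.591 with RiboBright. Its log2 ratios to DMSO were -0.19 and 0.36. A4503 and C4504 after it had between 0.089 and 0.133 in all libraries, and A4496 had between 0.034 and 0.038. All 4 bases of the A loop had a ratio of RiboBright to cycloheximide above 0, from 0.05 to 0.55. This sign was common around the loop, at 30 of 42 bases of 4401 to 4500 and 30 of 43 of 4501 to 4600.

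Ratios of RiboBright to DMSO went in both directions in block 4201 to 4300, which lies between the P loop and the E site. Of its 15 positions past the floor, 8 had a ratio to DMSO above 0 and 7 below. Over all 52 A and C of the block, 21 were above 0. The 5 bases chosen to show the rises are A4213 and A4214 in the P loop strand above and A4271, A4273 and A4274, in capitals, in a purine-rich run, a set put together after their values were seen.

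Purine run, 4264 to 4283: gtggagcAgAAgggcaaaag

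A4213 had 0.366 in DMSO, 0.37 with cycloheximide and 0.609 with RiboBright, and A4214 had 0.715, 0.775 and 1.242. Their log2 ratios of RiboBright to DMSO were 0.59 and 0.66, and C4215 after them had a ratio of -0.31. A4273 had 0.813, 0.86 and 1.285, and A4274 had 0.614, 0.635 and 0.976, with ratios of 0.52 and 0.53. A4271 had 0.363, 0.347 and 0.473. At these 5 A, RiboBright was the highest. The 7 bases below 0 were A4203, A4205, C4215, A4244, C4252, A4255 and A4279, from -0.51 at A4205 to -0.10 at A4244. The 3 positions at least 1.5-fold higher, A4213, A4214 and A4473, were all A, as were 36 of the 56 past the floor.

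Falls under RiboBright other than at C4341 were below 2-fold among positions past the floor. A4304 had 0.301 in DMSO, 0.285 with cycloheximide and 0.188 with RiboBright, a log2 ratio of -0.78. A4205, on the 3′ side of the P loop, had 1.016, 1.111 and 0.78, and A4192, just before the P loop letters, had 0.42, 0.393 and 0.311. Their log2 ratios to DMSO were -0.51 and -0.55, under 1.5-fold.

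Between 4466 and 4485, ahead of the A loop, only A4473 reached 1.5-fold from DMSO past the floor. A4474 and C4485 reached it between the compounds, at log2 ratios of 0.65 and 0.64. A4473 had 0.171 in DMSO, 0.24 with cycloheximide and 0.345 with RiboBright, a log2 ratio of 0.84 for RiboBright, which is the highest of the stretch past the floor. A4474 next to it had 0.296, 0.229 and 0.379, and C4485 had 0.216, 0.187 and 0.308. A4479 had 0.713, 0.565 and 0.635. C4466, chosen like A4473 and A4474 after its value was seen, had 0.039 in DMSO, 0.162 with cycloheximide and 0.171 with RiboBright. Its log2 ratios to DMSO were 1.73 and 1.75, but all 3 values lie below the floor and both ratios rest on the same low DMSO value.

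On the 3′ side of the A loop, A4513 had 0.337 in DMSO, 0.27 with cycloheximide and 0.495 with RiboBright. Its log2 ratio of RiboBright to cycloheximide was 0.80, the highest past the floor in that comparison. A4511 had 0.609, 0.72 and 0.856, so it was above DMSO under both compounds, at 0.16 and 0.35. A4584, with 0.917, 0.886 and 1.142, and A4599, with 0.245, 0.252 and 0.386, also had their highest signal in RiboBright.

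By blocks of 100 nt, the balance between the compounds turned along the stretch. The ratio of RiboBright to cycloheximide was above 0 at 20 of the 45 A and C in block 4101 to 4200. It was so at 17 of 52 bases of block 4201 to 4300, and at 21 of 49 bases of block 4301 to 4400. In the later blocks, 4401 to 4500 and 4501 to 4600, it exceeded 0 at 30 of 42 and 30 of 43. The medians in this order were -0.07, -0.27, -0.15, 0.13 and 0.20. Against DMSO, cycloheximide had medians of 0.01, -0.01, -0.09, -0.06 and -0.18, and RiboBright had -0.06, -0.18, -0.13, 0.06 and 0.09. These are counts over neighbouring bases of single libraries, most of them below the floor. Where 0 falls depends on the scaling. Between the compounds the median of the whole stretch ran from -0.11 to 0.06 over the alternatives, and the blocks were not compared under another scaling. Over all of 28S the median between the compounds was -0.08, and past the floor 254 positions were above 0 and 232 below. Blocks outside the stretch were not computed, so how usual such shifts are along 28S is not known.

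**Figure D5:**
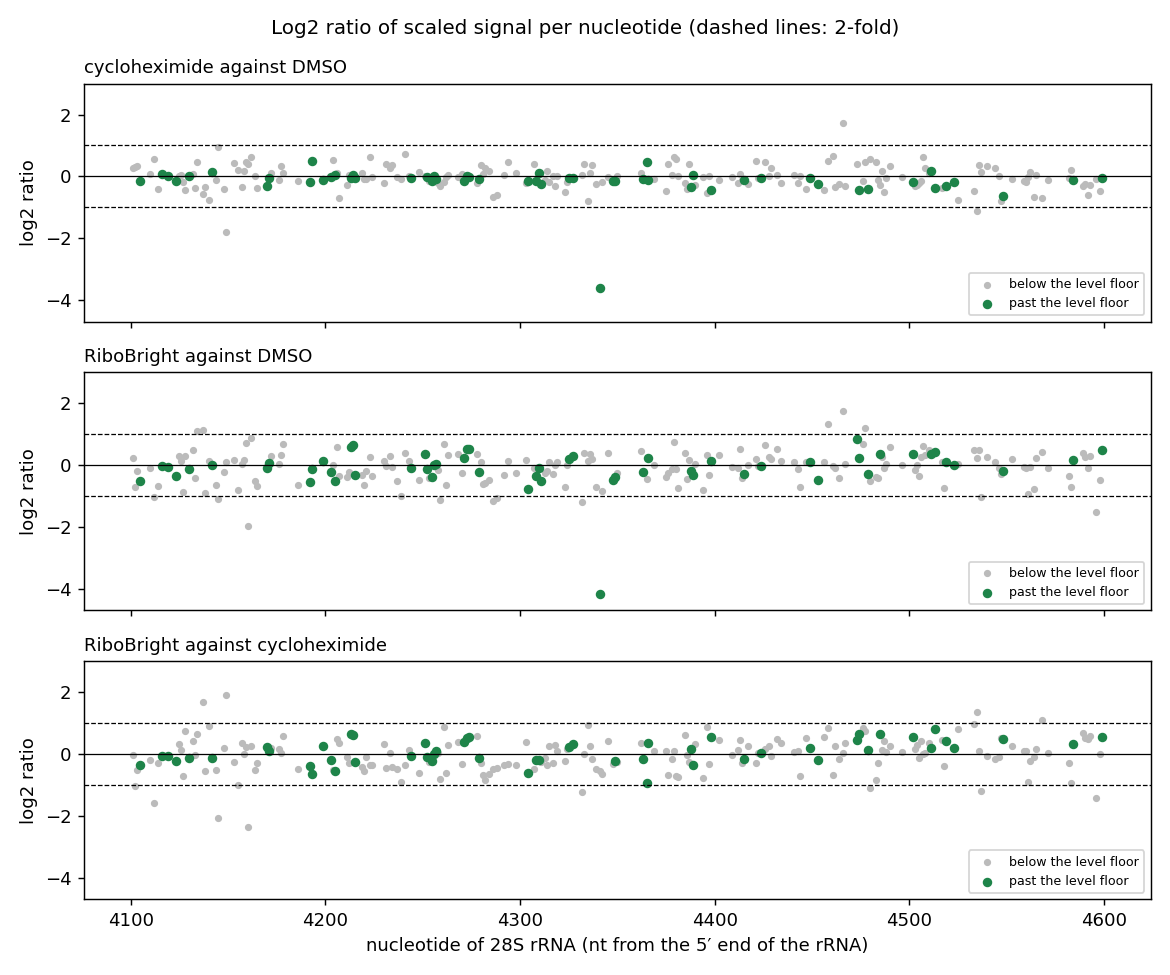
Log2 ratio of scaled signal at each A and C of 4101 to 4600 in the 3 comparisons, with positions past the level floor in green and others in grey. C4341 is the 1 green point beyond the dashed 2-fold lines, at -3.61 under cycloheximide and -4.16 under RiboBright, and points after 4400 lie more often above 0 in the bottom panel.

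Of the naturally modified bases listed here, all but A4523 lay below the floor in every library, as did 174 of the 231 positions. Besides A4523, the ribose-methylated C4456, C4536, A4571 and A4590 had DMSO signals of 0.071, 0.029, 0.15 and 0.077, in cycloheximide 0.052, 0.043, 0.145 and 0.066, and in RiboBright 0.084, 0.049, 0.153 and 0.103. A4220, known as an N6-methyladenosine, had 0.047, 0.046 and 0.029, and C4447, a 5-methylcytidine, had 0.159, 0.123 and 0.187. The DMSO median of the stretch was 0.131 for A and 0.0685 for C. In DMSO A4523, A4571, C4447 and C4456 were above the median of their base, and C4536, A4590 and A4220 were below.

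The letters alone also marked places that could pair with each other. A search for at least 5 consecutive base pairs (Watson-Crick or G-U) around a loop of 3 to 9 nt found 13 hairpins in the stretch. It is a match of letters, not the structure of the ribosome. In DMSO the 58 A and C of the stems had a median of 0.08 and the 40 of the loops 0.1505. The medians were 0.086 and 0.161 with cycloheximide and 0.0895 and 0.1795 in RiboBright, so the pooled median of loops was above that of stems in every library. Hairpin by hairpin this was not general. Of the 12 hairpins with A or C in the loop, the loop median was above the stem median in 8 in DMSO, 8 with cycloheximide and 6 with RiboBright. Matched stems held reactive bases too, among them A4523, and 13 of the 58 were past the floor in DMSO. Stems and loops were not split by base. In this stretch A had a higher DMSO median than C (0.131 against 0.0685), so the medians of stems and loops also depend on their share of A.

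A hairpin at 4245 to 4263, shown with the base before it, gave the clearest contrast. It and a GC-rich arm at 4129 to 4155 were found under each stem definition tried. Capitals mark the loops.

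Hairpin, 4244 to 4263: agggaggACAGAAAcctccc

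GC-rich arm, 4129 to 4155: gcgcccggccgCGCGCcggccgggcgc

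In the loop of the first, C4252 had 5.738 in DMSO, 5.99 with cycloheximide and 5.774 with RiboBright, A4257 had 2.034, 2.036 and 2.284, and A4255 had 1.067, 1.017 and 0.903. A4251, A4253 and A4256 had between 0.153 and 0.319. The 6 A and C of its stem reached at most 0.075 in DMSO, 0.088 with cycloheximide and 0.055 with RiboBright. A4244, just outside the stem, had 2.732. In the GC-rich arm the 11 A and C of the stem had a median of 0.033 in DMSO, but C4130 in the stem had 0.39, 0.411 and 0.388. Its loop held C4140, with 0.127, 0.075 and 0.155, C4142, with 0.428, 0.497 and 0.475, and C4144, with 0.24, 0.235 and 0.165. Neither hairpin had a position past the floor that reached 1.5-fold in any comparison.

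The strand between the ring segments held A4415 and A4424, in capitals here.

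Strand, 4409 to 4431: cggccaAgcgttcatAgcgacgt

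A4415 had 1.325 in DMSO, 1.289 with cycloheximide and 1.197 with RiboBright, and A4422, between them, had 0.23, 0.232 and 0.245. A4424 was about as reactive in each library, at 3.77, 3.813 and 4.069. Neither reached 1.5-fold in any comparison.

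No single difference from DMSO in the neighbours of the stretch in sequence was as large as that at C4341. Ratios past the floor did not scatter less there throughout. Their robust SD under cycloheximide was 0.19 before the stretch and 0.18 after it, against 0.11 within. With RiboBright it was 0.37 and 0.25, against 0.39, and 84.6% and 85.7% lay within 1.5-fold, against 91.1%. In the 500 nt before the stretch, 0 of 45 positions past the floor were called under cycloheximide. Under RiboBright 2 were called higher and 2 lower of 52. From the end of the stretch to the 3′ end of the rRNA, 1 of 60 was called under cycloheximide and 0 of 63 under RiboBright. The largest difference in scaled signal from DMSO was 0.763 and 0.376 in these neighbours under cycloheximide, against 2.36 at C4341, and A4523 fell by 1.05. Elsewhere in 28S it reached 2.13. Under RiboBright it was 0.611 and 0.657, against 2.43 at C4341, and 1.39 elsewhere in 28S. After C4341, the next in the stretch under RiboBright was -0.47 at C4252, smaller in size than in either neighbour.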

How the data were processed

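Per the file headers, the authors deposited 1 signal per nucleotide of 28S rRNA for each library, and values are present on A and C alone. The submitters' processing notes name Bowtie2, cutadapt and hg38, with no role or version. The sources used here do not give the mutation counter, coverage minimum, any background subtraction or depth, so there is no counting interval. The table of the series and the files of each library held identical values at all 5070 positions. RefSeq's gene table (GRCh38.p14) lists 28S genes on several chromosomes. RNA28SN5, an rRNA gene without an assigned chromosome there, also spans 5070 nt (113348 to 118417). Reads cannot be assigned to one copy of the repeated gene.

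Scaling, pseudocount (10% of the DMSO median) and calls were computed over all A and C of 28S with pandas 2.3.3 in Python 3.11.15. The code was run on simulated data with changes planted at reactive bases. These changes were larger than 2-fold and the noise was smaller than the spread of ratios over 28S. That run checks the code and not the calls in these libraries. Named positions are the E-site, peptidyl transferase, P loop, A loop and modified bases, the 10 most reactive in DMSO, called positions, the 5 largest rises and falls of each comparison and hairpin loops. Chosen after their values were seen were C4130, C4138, C4145, C4160, C4537, A4192, A4271, A4279, A4304, C4337, A4339, C4342, C4345, A4388, C4389, C4466, A4473, A4474, A4477, A4480, A4513, A4568 and A4599. Stretch, lists and rules were chosen with earlier results of these data known. Alternatives covered scaling, pseudocount, floor, fold, region width and stem definition.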

Additional observations from a re-analysis of the deposited data

How the results depend on the processing

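At C4341 the log2 ratio stayed between -3.64 and -3.53 for cycloheximide and between -4.28 and -4.04 for RiboBright over the scalings and pseudocounts tried. Between the compounds its ratio ran from -0.69 to -0.51, with both scaled signals below the floor in the main setting. The counts of called positions moved with the thresholds. With the floor at the DMSO median they were 2 under cycloheximide (C4341 and C4466), 3 under RiboBright (C4341, C4466 and A4477) and 2 between the compounds (A4480 and A4568). At 1.5-fold they were 2, 5 and 8. Scaling over the stretch itself gave 1 call between the compounds, C4365, with a log2 ratio of -1.06, from scaled signals close to the floor. The medians of the stretch, E-site windows and ring moved by less than the robust SD past the floor in each alternative, but those of the stretch changed sign with the scaling, from -0.04 to 0.04 under cycloheximide, from -0.13 to 0.09 under RiboBright and from -0.11 to 0.06 between the compounds. The ring median was below 0 under cycloheximide in every alternative, from -0.22 to -0.13, and ran from -0.05 to 0.19 under RiboBright. Ratios below 0 under cycloheximide were not particular to the ring. Past the floor, 12 positions of the stretch were above 0 and 42 below. Over all of 28S 223 were above 0 and 365 below, and 130 and 260 more than 25 nt from a missing value. These counts depend on the scaling. The median of the stretch past the floor was -0.09, and the log2 of the cycloheximide scaling factor is -0.08. Block 4501 to 4600 had a median of -0.18, with 12 of 43 above 0. No paired analysis was possible because each treatment has 1 library. Without replicates or depth, small ratios at low signals cannot be told apart from counting noise.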
